A study of Homo sapiens with 8 samples.

Results

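The genes that encode the proteasome and the proteins that build it were read in SW480, a human colorectal adenocarcinoma cell line. They were chosen by name, as protein-coding genes whose symbol begins with PSM, then a letter from A to G and a number, which gave 49 of the 58735 genes in the table. The vector control group held 4 libraries of SW480 cells infected with lentivirus carrying the empty vector, and the SPOCK1 group held 4 libraries of SW480 cells infected with lentivirus for SPOCK1 with a flag tag. SPOCK1 encodes testican-1, a proteoglycan secreted into the matrix, which the series title ties to Wnt/β-catenin signalling and stemness in colorectal cancer. All 8 libraries share the cell line, and the labels give the infection and puromycin selection for both groups. Whether libraries came from separate cultures or infections is not in the labels, so the p-values here reflect only library-to-library spread, which may be technical. Should each group be 1 selected population, the effect of SPOCK1 and any other way in which they differ cannot be told apart.

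The proteasome is the barrel-shaped protease that degrades proteins tagged with ubiquitin in the cytosol and nucleus. Its core is a stack of rings, with alpha subunits on the outside that gate the entrance and beta subunits on the inside, some of which cut the substrate. A regulatory cap with a ring of ATPases and a lid of non-ATPase subunits recognises, deubiquitinates, unfolds and feeds in the substrate, and interferon-inducible beta subunits can replace the constitutive cutting subunits to form the immunoproteasome. Transcription of many subunit genes is known to be raised together by NFE2L1 through antioxidant response elements when proteasome activity is low.

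By role, the 49 genes comprised 7 core alpha, 7 core beta, 3 immunoproteasome, 6 cap ATPase and 11 cap non-ATPase genes. The other members were 5 genes of alternative caps or of an inhibitor, 7 of assembly factors, 2 of tissue-restricted core subunits and PSMC3IP. PSMC3IP encodes a recombination factor that binds the product of PSMC3 and is no proteasome subunit. It was matched by its name alone. The 2 tissue-restricted genes, PSMA8 of the testis and PSMB11 of the thymic cortex, had 0 counts in all 8 libraries. A count of 0 over a group allows up to 3 counts, which is 0.0196 CPM (counts scaled to library size) in vector controls and 0.0199 CPM in SPOCK1 libraries, covering counting error only. The remaining 47 genes passed the filter on low counts and were tested among 15790 genes.

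Total counts lay between 35643585 and 42812951 per library. SPOCK1 had 0 to 6 counts in the vector controls and 6719 to 9712 in the SPOCK1 libraries, in the direction the group labels give. Summed levels of 9 markers of colorectal epithelium were 12938 to 15840 CPM in vector controls and 14519 to 16212 CPM in SPOCK1 libraries, although KRT20 and CDX1 of that list were at or near 0 CPM in both groups. KRT8 and KRT18, at means of 8287 and 4518 CPM in vector controls, made up most of the sum. The adhesion gene CDH1 of the same list fell by 0.67 on the log2 scale in SPOCK1 libraries (adjusted p by edgeR 0.00537), without overlap. VIL1 was at -0.27 (adjusted p 0.197), also without overlap, and CDX2 at -0.16 (adjusted p 0.452). Over all genes tested, edgeR called 0.798% as lower in SPOCK1 libraries, and 4.8% were lower without overlap. Markers of fibroblasts, of immune cells and of endothelium each summed to at most 2.29 CPM in any library. Libraries 1 of both groups stood apart for the proteasome genes, as described below. Ribosomal RNA genes, mitochondrial ribosomal RNA genes and ribosomal RNA pseudogenes were counted together. They took 0.697% to 0.739% of the counts of vector controls and 0.560% to 0.671% of those of SPOCK1 libraries, without overlap. The part of these library differences in the results was not tested.

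Because NFE2L1 acts on proteasome genes through their promoters, 4 promoter windows of core and cap genes are shown, each the 250 bases before the annotated start with at most 10 bases of annotated exon. PSMA5 and PSMB5 were chosen as core genes with no antioxidant response element core in the window, and PSMB3 and PSMD3 as a core and a cap gene with such a match. Sequences are from RefSeq on GRCh38.p14, 5′ to 3′ on the strand of the gene, and capitals mark matches to TGACNNNGC (the core of the antioxidant response element), CCAAT (the CCAAT box), the core of the interferon-stimulated response element or TTCNNNGAA (the gamma-activated sequence) on either strand.
PSMA5, minus strand, chr1:109426449-109426698: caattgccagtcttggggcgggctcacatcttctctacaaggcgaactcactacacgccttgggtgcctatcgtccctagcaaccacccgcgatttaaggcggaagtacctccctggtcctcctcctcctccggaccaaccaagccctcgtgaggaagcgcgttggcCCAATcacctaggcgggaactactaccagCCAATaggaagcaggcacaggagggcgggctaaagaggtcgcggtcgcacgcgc
PSMB5, minus strand, chr14:23035221-23035470: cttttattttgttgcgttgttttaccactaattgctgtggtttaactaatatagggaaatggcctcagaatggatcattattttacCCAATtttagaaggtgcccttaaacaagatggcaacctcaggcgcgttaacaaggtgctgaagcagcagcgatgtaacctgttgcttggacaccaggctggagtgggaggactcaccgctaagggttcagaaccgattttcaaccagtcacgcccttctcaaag
PSMB3, plus strand, chr17:38752491-38752740: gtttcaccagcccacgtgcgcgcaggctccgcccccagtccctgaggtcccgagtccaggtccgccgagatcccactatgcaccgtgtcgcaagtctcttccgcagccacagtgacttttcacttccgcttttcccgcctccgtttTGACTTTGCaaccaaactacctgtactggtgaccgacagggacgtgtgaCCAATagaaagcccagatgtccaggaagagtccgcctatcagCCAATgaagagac
PSMD3, plus strand, chr17:39980557-39980806: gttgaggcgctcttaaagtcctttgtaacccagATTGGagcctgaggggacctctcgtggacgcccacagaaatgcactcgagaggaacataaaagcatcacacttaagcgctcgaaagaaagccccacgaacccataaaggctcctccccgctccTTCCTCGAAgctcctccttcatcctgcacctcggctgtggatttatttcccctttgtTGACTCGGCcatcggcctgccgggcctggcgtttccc

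The TGACNNNGC match lay 104 to 96 bases before the start of PSMB3 and 37 to 29 bases before that of PSMD3. In the windows shown, PSMA5 and PSMB3 each held a pair of CCAAT matches, PSMB5 held 1, and PSMD3 held 1 on the opposite strand. PSMB5 was also counted with TTCNNNGAA, through a promoter entry that is not shown. TTCNNNGAA reads the same on both strands, and its match in PSMD3 is the same 9 letters 94 to 86 bases before the start. No other matches overlapped in these windows. Promoter entries were matched for 43 of the 49 genes, with 53 entries in all. PSMA7, PSMB1, PSMB6, PSMB7, PSMD4 and PSMG3 had none. TGACNNNGC occurred in 13 of the 53 member entries (24.5%) and in 10.9% of all 35116 promoter windows of the same length. The 13 genes with it included immunoproteasome, alternative cap and assembly genes beside core and cap genes. CCAAT occurred in 39.6% of member entries and 32% of all, the core of the interferon-stimulated response element in 9.43% and 3.02%, and TTCNNNGAA in 13.2% and 6.57%. A match is a run of letters, and no binding was measured here.

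No proteasome gene passed an adjusted p of 0.05 between the groups in edgeR's quasi-likelihood test, with 0 of 47 called and 1.04% called over all genes tested, 0.247% as higher and 0.798% as lower in SPOCK1 libraries. Point estimates were small and mostly higher in the SPOCK1 libraries: 43 of 47 log2 fold changes of SPOCK1 over vector were above 0, against 49.2% of all genes tested. The median log2 fold change was 0.12 (1.09-fold) for the 47 genes and -0.00 for all genes. Those below 0 were PSMA2, PSMB8, PSME1 and PSMC3IP. Values ran from -0.29 for PSMA2, a core alpha gene, to 0.29 for PSMD6, a cap lid gene. At an unadjusted p under 0.05 there were 8 genes, all higher with SPOCK1, against 5.48% of all genes higher and 8.17% lower at that level. DESeq2 called 1 gene, PSMD6, where it called 2.52% of all genes (0.716% as higher), and limma-voom called 0 where it called 0.944%. In bulk RNA, a change in the share of cells with a transcript and a change in transcript per cell cannot be told apart.

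**Figure D1:**
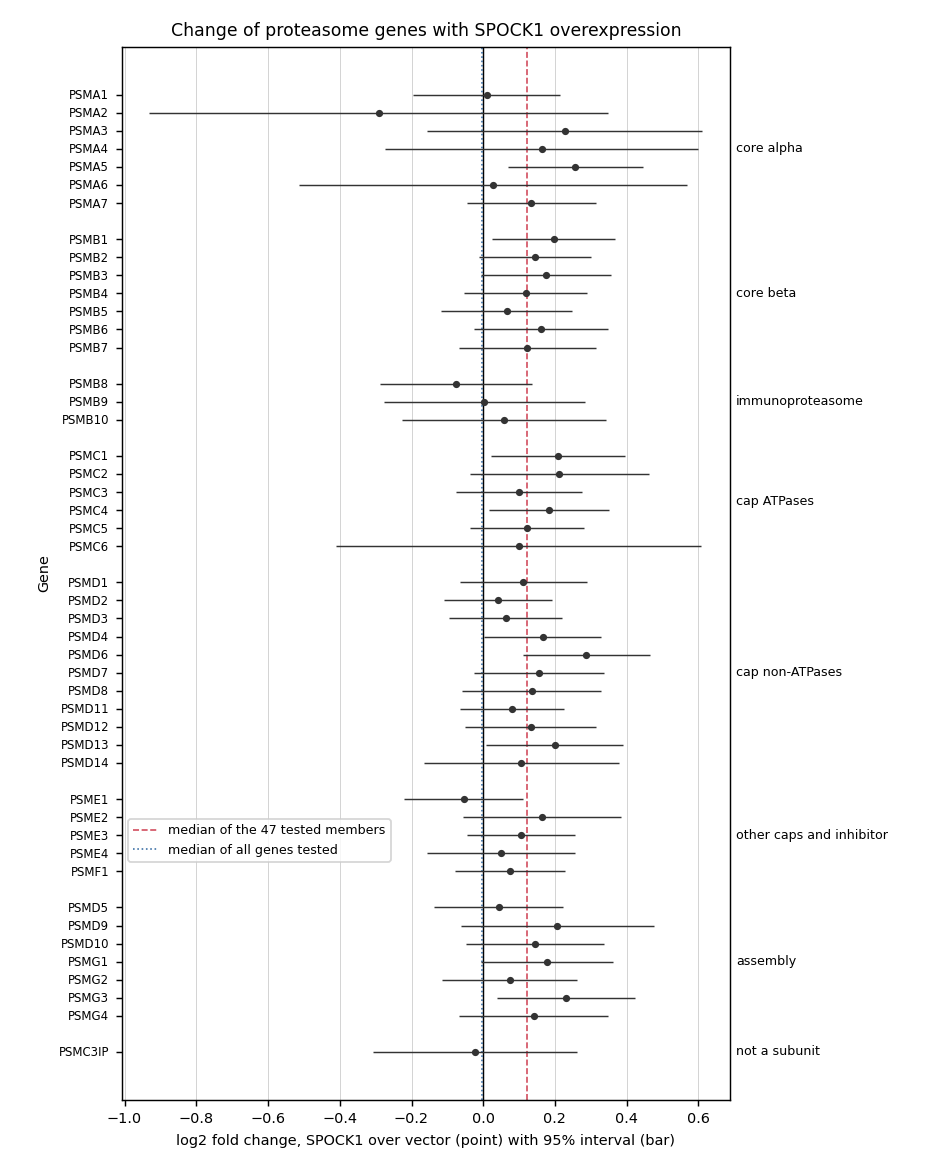
Log2 fold change of SPOCK1 over vector (horizontal axis, points) with its 95% interval (bars) for the 47 tested genes, grouped by role. The dashed line is their median, 0.12, the dotted line the median of all genes, -0.00, and most points lie to the right of 0 while most intervals cross it.

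In the core, the alpha genes had a median log2 fold change of 0.13 with 6 of 7 above 0, and the beta genes a median of 0.14 with 7 of 7 above 0. Summed over the 7 beta genes, the level was 1802, 2114, 2046 and 2168 CPM in vector libraries 1 to 4 and 2470, 2236, 2056 and 2187 CPM in SPOCK1 libraries 1 to 4. Vector library 1 was the lowest and SPOCK1 library 1 the highest of the 8, and the other 6 libraries overlapped between groups. The summed core alpha level was 886 ± 78.6 CPM in vector controls and 986 ± 119 CPM in SPOCK1 libraries (SD, n = 4 each).

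PSMA5, an alpha ring subunit on chromosome 1 (109399031 to 109426427, minus strand), had the smallest p of the alpha genes. Its level was 104.2, 110.3, 120.1 and 101.9 CPM in vector libraries 1 to 4 and 149.9, 124.6, 131.1 and 115.6 CPM in SPOCK1 libraries 1 to 4. SPOCK1 library 4 lay below vector library 3, so the groups overlapped. The log2 fold change was 0.26 ± 0.09 (SE), 1.19-fold with a 95% interval from 1.05 to 1.36, and the adjusted p by edgeR was 0.212. PSMB1, a non-catalytic beta subunit, was at 187.2, 200.5, 209.5 and 201.5 CPM in vector controls and 263.2, 223.8, 212.7 and 215.4 CPM in SPOCK1 libraries. Every SPOCK1 library was above every vector library, although SPOCK1 library 3 exceeded vector library 3 by little. PSMB1 differed by 0.20 ± 0.08 (log2, SE; adjusted p by edgeR 0.304). Along with the cap ATPase gene PSMC5, it was 1 of 2 genes of the 47 that were higher in every SPOCK1 library, where 3.43% of all genes tested were, and no member was lower in every one. Counting both directions, 8.23% of all genes did not overlap.

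The constitutive cutting subunits are encoded by PSMB5 (chymotrypsin-like), PSMB6 (caspase-like) and PSMB7 (trypsin-like). PSMB5 was at 201.0, 246.5, 238.6 and 253.8 CPM in vector libraries and 270.6, 243.1, 223.4 and 246.5 CPM in SPOCK1 libraries, and the log2 fold change was 0.07 ± 0.09 (SE; adjusted p by edgeR 0.786). PSMB6 was at 335.3, 392.6, 368.5 and 418.8 CPM and then 479.5, 412.8, 379.3 and 422.5 CPM, and the log2 fold change was 0.16 ± 0.09 (SE; adjusted p 0.442). PSMB7 was at 309.9, 379.1, 366.0 and 401.3 CPM and then 446.9, 401.7, 365.7 and 372.0 CPM, and the log2 fold change was 0.12 ± 0.09 (SE; adjusted p 0.579). All 3 genes were lowest in vector library 1 and highest in SPOCK1 library 1, and their groups overlapped. PSMB2, a beta ring subunit and the lowest of the core beta genes per length, was at 229.6 ± 11.7 CPM in vector controls and 253.8 ± 14.1 CPM in SPOCK1 libraries (SD, n = 4 each). Its libraries ran from 213.8 to 242.1 CPM and from 239.5 to 267.8 CPM, and the groups overlapped.

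The immunoproteasome genes were the group with a median log2 fold change nearest 0, at 0.00. PSMB8, which replaces PSMB5, was at 41.9, 55.7, 50.8 and 53.2 CPM in vector libraries and 54.0, 47.8, 45.0 and 44.5 CPM in SPOCK1 libraries (log2 fold change -0.08 ± 0.10 SE, adjusted p by edgeR 0.787). PSMB9, which replaces PSMB6, was at 9.51, 11.2, 10.9 and 12.3 CPM and then 12.5, 11.2, 8.69 and 11.7 CPM (0.00 ± 0.13 SE, adjusted p 0.994). PSMB10, which replaces PSMB7, was at 8.07, 9.10, 6.90 and 9.07 CPM and then 8.80, 8.50, 7.40 and 9.83 CPM (0.06 ± 0.14 SE, adjusted p 0.893). The groups overlapped in all 3 genes. The 95% intervals of fold change were 0.819 to 1.10 for PSMB8, 0.826 to 1.22 for PSMB9 and 0.854 to 1.27 for PSMB10. PSMB8 (chromosome 6, 32840717 to 32844703, minus strand) and PSMB9 (chromosome 6, 32844136 to 32859585, plus strand) overlap at their ends with each other and with PSMB8-AS1. The strand setting of the counting is not given in the sources used here, so reads from the bases that PSMB8 shares with the other genes cannot be told apart. PSMB8-AS1 lies on the strand of PSMB9 and covers 5.66% of its exonic bases, and a known strand setting would not separate those.

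Per kilobase of exonic length, the inducible subunits were lower than the constitutive ones they replace. The PSMB8 level was 12.3%, 13.3%, 12.5% and 12.3% of the PSMB5 level in vector libraries 1 to 4 and 11.7%, 11.6%, 11.9% and 10.6% in SPOCK1 libraries 1 to 4. The PSMB9 level was 1.34% to 1.39% of the PSMB6 level in vector controls and 1.08% to 1.30% in SPOCK1 libraries, and the PSMB10 level was 1.82% to 2.51% and 1.90% to 2.55% of the PSMB7 level. The ratios of PSMB8 and of PSMB9 did not overlap between the groups, by narrow gaps, and those of PSMB10 did. Among single genes, 8.23% of all tested did not overlap in either direction, and the share among such ratios was not computed. The ratio of PSME1 to PSME2, the subunits of the interferon-inducible activator, overlapped, at 248% to 301% in vector controls and 205% to 287% in SPOCK1 libraries. On the length of 1 principal coding transcript, an alternative chosen after seeing the data, PSMB8 was 24.0% to 26.0% of PSMB5 in vector controls and 20.8% to 23.2% in SPOCK1 libraries. On that scale PSMB9 was 3.09% to 3.21% and 2.50% to 3.01% of PSMB6, and PSMB10 was 1.52% to 2.10% and 1.59% to 2.13% of PSMB7. The size of the ratios thus depends on the length used, and PSMB10 is a gene whose level is uncertain, for the overlap given below. These ratios are a description, looked at after the members' values were known, and were not tested.

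**Figure D2:**
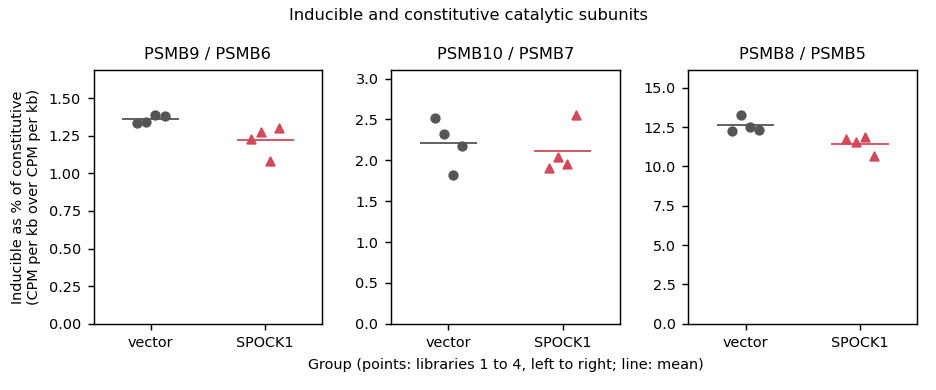
Level of each inducible catalytic subunit as a percentage of the constitutive subunit it replaces (vertical axis from 0, CPM per kb over CPM per kb), with 1 point a library and a line at the group mean. SPOCK1 libraries lie below vector libraries for PSMB8 over PSMB5 and PSMB9 over PSMB6, and the groups overlap for PSMB10 over PSMB7.

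Among the cap ATPases, which unfold the substrate, the median log2 fold change was 0.15 with 6 of 6 above 0. PSMC1 was at 95.1, 92.2, 103.8 and 88.5 CPM in vector libraries and 124.6, 113.1, 102.9 and 98.0 CPM in SPOCK1 libraries. SPOCK1 libraries 3 and 4 lay within the range of the controls. The difference was 0.21 ± 0.09 (log2, SE; adjusted p by edgeR 0.312). PSMC1 shares 75.8% of its exonic bases with NRDE2, a gene on the opposite strand, so its reads are uncertain without a known strand setting. PSMC5 was at 112.5, 130.5, 131.9 and 129.2 CPM and then 135.5, 136.7, 134.6 and 142.1 CPM, without overlap (log2 fold change 0.12 ± 0.08 SE, adjusted p by edgeR 0.501). It shares 19.5% of its exonic bases with FTSJ3, also on the opposite strand, so reads from those bases are uncertain too. PSMC3, the highest ATPase gene per length, was at 364.2 ± 27.7 and 390.2 ± 35.3 CPM (SD, n = 4 each), with libraries from 326.0 to 390.1 and from 350.3 to 433.3 CPM that overlapped.

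PSMC6, the lowest ATPase gene per exonic length (PSMC1 was lowest per length of 1 principal transcript), varied more within groups than between them. It was at 47, 36.9, 80.5 and 42.1 CPM in vector libraries and 86.6, 42.3, 56.4 and 35.7 CPM in SPOCK1 libraries, and the log2 fold change was 0.10 ± 0.24 (SE; adjusted p by edgeR 0.898). Vector library 3 and SPOCK1 library 1 were the high ones. PSMA4, PSMA3 and PSMA2, all of the alpha ring, were highest in the same library of each group. PSMA4 reached 147.9 CPM in vector library 3 and 171.7 CPM in SPOCK1 library 1, against 77.8 CPM in SPOCK1 library 4. The 8 members with a GC content below 40% had a median ratio of highest to lowest vector library of 1.37, against 1.17 for the 21 between 40% and 50% and 1.22 for the 18 at 50% or more. PSMC6 (38.8%) and PSMA3 (36.7%) are among the 8, but PSMA4 (42.1%) and PSMA2 (40.7%) are among the 21. PSMA2 had the highest such ratio of all members, 2.70. The GC trend of a library is the median log2 deviation of the GC-richest of 5 equal groups of genes minus that of the GC-poorest. It was -0.13, 0.20, -0.15 and 0.23 in vector libraries 1 to 4 and -0.27, 0.03, -0.18 and 0.26 in SPOCK1 libraries 1 to 4. Fits with offsets on GC content are given with PSMD6, and no other test of its part in the results was made.

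The cap non-ATPase genes had a median log2 fold change of 0.13 with 11 of 11 above 0. PSMD6, a lid subunit on chromosome 3 (64010549 to 64024010, minus strand), had the smallest p of all members. It was at 97.7, 96.0, 109.0 and 90.3 CPM in vector libraries 1 to 4 and 126.2, 125.3, 121.7 and 106.6 CPM in SPOCK1 libraries 1 to 4. SPOCK1 libraries 1 to 3 were above all controls, and SPOCK1 library 4 was below vector library 3. The log2 fold change was 0.29 ± 0.08 (SE), 1.22-fold with a 95% interval from 1.08 to 1.38, and the adjusted p by edgeR was 0.125. DESeq2 gave an adjusted p of 0.0472 for PSMD6. Without SPOCK1 library 4 it was 0.0462 in edgeR, where 1.47% of all genes were called (0.409% as higher). With offsets on GC content and exonic length per library it was 0.0107, and PSMG3 (0.0330) and PSMA5 (0.0461) passed too, where 3.91% of all genes were called (2.31% as higher). With the replicate number as a block in addition, PSMD6 was at 0.0387 and the other 2 did not pass, where 1.32% of all genes were called (0.608% as higher). A true change that tracks GC content or length is taken out by the offsets as well.

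PSMD2, which scaffolds the base of the cap, was the member with the highest CPM. It was at 1109, 1238, 1155 and 1198 CPM in vector libraries and 1196, 1204, 1156 and 1280 CPM in SPOCK1 libraries. The groups overlapped, and the log2 fold change was 0.04 ± 0.07 (SE; adjusted p by edgeR 0.842), with a 95% interval of fold change from 0.927 to 1.14. PSMD14, the deubiquitinase of the lid, had a log2 fold change of 0.11 and PSMD4, a ubiquitin receptor, 0.17 (adjusted p by edgeR 0.762 and 0.358). PSMD3, the cap gene whose promoter is shown above, had 0.06 (adjusted p by edgeR 0.760). PSMB3, the core gene shown there with a TGACNNNGC match, had 0.17 (adjusted p 0.390).

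The alternative caps and the inhibitor had a median log2 fold change of 0.08 with 4 of 5 above 0. PSME1 and PSME2 encode the interferon-inducible activator that opens the core without ATP. PSME1 was at 96.3, 112.9, 113.5 and 102.9 CPM in vector libraries and 105.7, 104.7, 96.6 and 102.8 CPM in SPOCK1 libraries (log2 fold change -0.05 ± 0.08 SE, adjusted p by edgeR 0.806). PSME2 was at 69.2, 75.5, 84.8 and 83.4 CPM and then 103.7, 90.5, 83.9 and 72.1 CPM (0.16 ± 0.10 SE, adjusted p 0.515). The estimates of the 2 subunits differed in sign, the groups overlapped for both, and the difference between them was not tested. PSME4, a large single-chain activator, was at 83.0 ± 8.41 and 85.9 ± 10.6 CPM (SD, n = 4 each). PSMF1, which encodes an inhibitor of the core, had a log2 fold change of 0.08.

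The assembly genes had a median log2 fold change of 0.14 with 7 of 7 above 0. PSMG1 to PSMG4 help to build the alpha ring, and PSMD5, PSMD9 and PSMD10 the base of the cap. PSMG3 was at 64.6, 79.8, 76.9 and 84.6 CPM in vector libraries and 99.1, 88.6, 84.4 and 86.8 CPM in SPOCK1 libraries. SPOCK1 library 3 lay just below vector library 4, and the rest of the SPOCK1 libraries were above all controls. The log2 fold change was 0.23 ± 0.09 (SE; adjusted p by edgeR 0.286). PSMG1, the highest of the assembly genes per exonic length (PSMG3 was highest per length of 1 principal transcript), was at 105.5 ± 6.10 and 119.3 ± 13.7 CPM (SD, n = 4 each; log2 fold change 0.18, adjusted p by edgeR 0.389). PSMD9 was at 6.61 ± 0.540 and 7.64 ± 0.572 CPM (SD, n = 4 each; log2 fold change 0.21, adjusted p by edgeR 0.499).

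**Figure D3:**
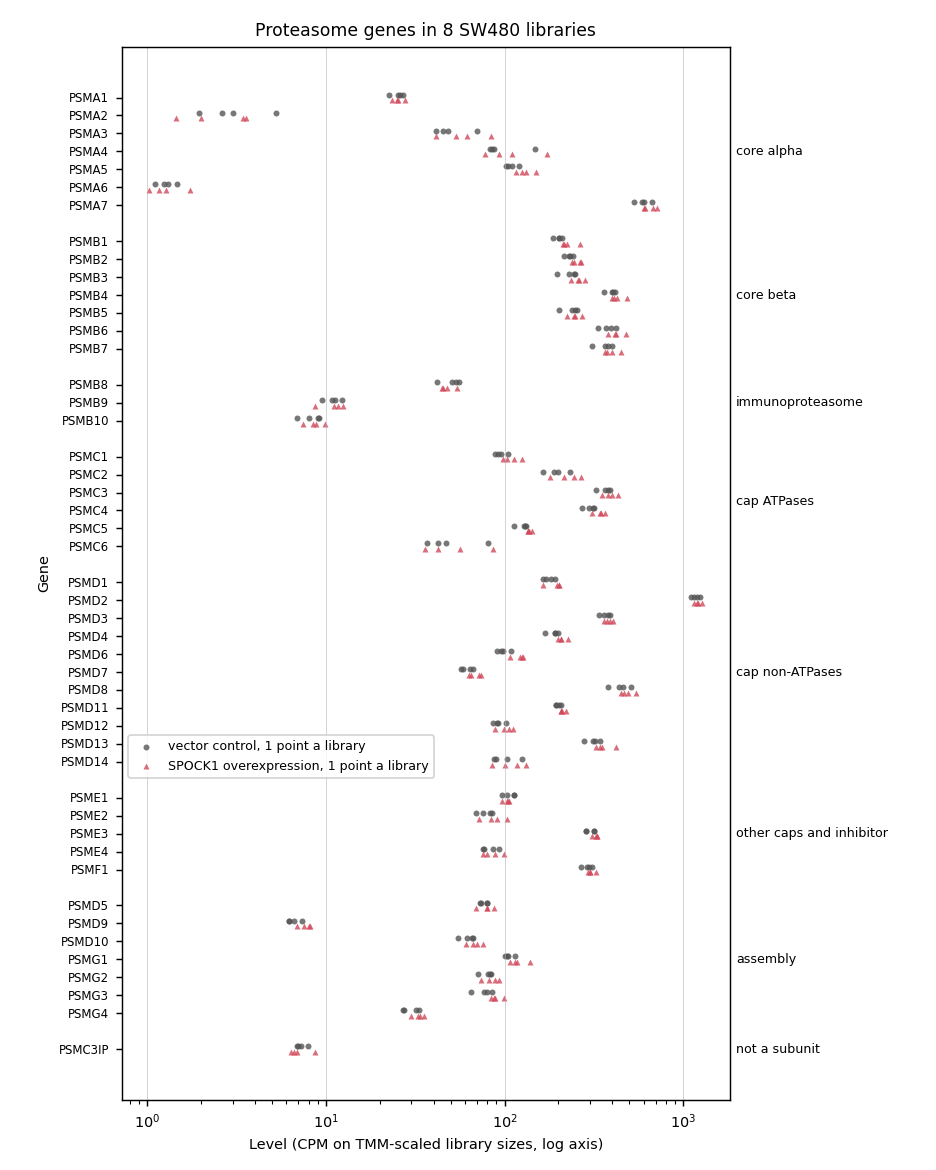
CPM on TMM-scaled library sizes (horizontal log axis) of the 47 tested genes in each library, circles for the 4 vector controls and triangles for the 4 SPOCK1 libraries, grouped by role. Levels run from PSMA6 at 1.03 to 1.74 CPM to PSMD2 at 1109 to 1280 CPM, and the groups overlap for every gene but PSMB1 and PSMC5.

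The small shift of the members rested more on libraries 1 than on the others. SPOCK1 library 1 held the highest value of its group for 36 of the 47 genes, and vector library 1 the lowest of its group for 26. The median log2 deviation of the members from their 8-library mean was 0.20 in SPOCK1 library 1 and -0.17 in vector library 1. In the other 6 libraries it lay between -0.04 and 0.06. Without SPOCK1 library 1 the median log2 fold change was 0.07 with 36 genes above 0, and without vector library 1 it was 0.09 with 40 above 0. With libraries 1 and 3 of both groups alone the median was 0.18 with 45 above 0, and with libraries 2 and 4 alone it was 0.05 with 34 above 0. On plain library sizes, without TMM factors, the median of the members was 0.08 with 40 above 0, while that of all genes was -0.05. The summed level of the 46 genes that encode subunits, caps or assembly factors was 7963 to 8939 CPM in vector controls and 8903 to 10205 CPM in SPOCK1 libraries, so the groups overlapped at their edge. All 49 genes took 0.838% to 0.897% of the counts of vector controls and 0.883% to 0.994% of those of SPOCK1 libraries.

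**Figure D4:**
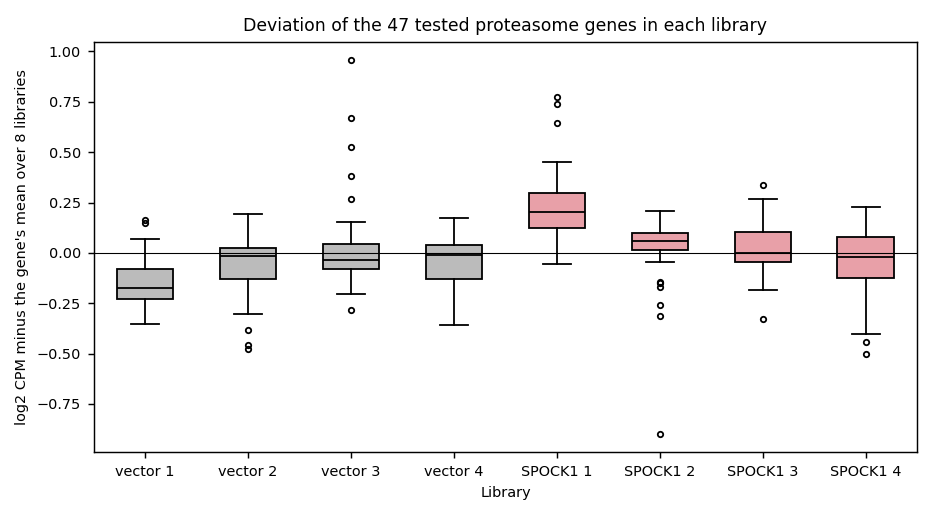
Log2 CPM of each of the 47 tested genes minus its mean over the 8 libraries (vertical axis), as a box plot per library with the median as a line, whiskers for the range without outlying genes and circles for those genes. Vector library 1 lies lowest, with a median of -0.17, and SPOCK1 library 1 highest, with 0.20.

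Levels between genes were compared per kilobase of exonic length in the vector controls. PSMA7, an alpha subunit, was highest at 340 ± 32.4 CPM per kb (SD, n = 4), followed by PSMB6 at 262 ± 24.5 and PSMD2 at 215 ± 10.2 CPM per kb. PSMA7 had 528.0, 585.9, 600.2 and 666.2 CPM in vector libraries and 715.4, 679.4, 606.0 and 611.1 CPM in SPOCK1 libraries, which overlapped (log2 fold change 0.13 ± 0.09 SE, adjusted p by edgeR 0.511). The lowest was PSMA6, another subunit of the same ring, at 0.197 ± 0.0225 CPM per kb. PSMA6 had 1.31, 1.46, 1.11 and 1.24 CPM in vector libraries and 1.74, 1.03, 1.27 and 1.17 CPM in SPOCK1 libraries, which overlapped (log2 fold change 0.03 ± 0.26 SE, adjusted p by edgeR 0.976). Subunits of a ring are present in equal numbers in the assembled particle, and these counts per length differed by a factor of 1730. On the length of 1 principal coding transcript, an alternative chosen after seeing the data, the factor was 481, with the same pair of genes at the ends, although PSMD2 was then the fifth highest.

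The 3 lowest genes per kilobase, PSMA6, PSMA2 and PSMD9, all share coding bases with an overlapping gene on the same strand. In GENCODE 29, 5 tested members share more than 50% of their coding bases with the exons of another gene on their strand: PSMA2 (97.1%, with AC010132.3), PSMA1 (88.6%, AC018523.2), PSMA6 (70.4%, AL121594.1), PSMD9 (58.7%, AC069503.2) and PSMB10 (58.3%, AC040162.1). Their levels ran from 0.197 to 7.63 CPM per kb with a median of 0.754. The other 42 tested genes ran from 2.83 to 340 CPM per kb with a median of 36.5. The lowest of them was PSMC3IP, which is no proteasome subunit, followed by PSMG4 at 2.87 CPM per kb. On the length of 1 principal coding transcript PSMG4 was at 35.6 CPM per kb. PSMA2 was at 3.22 ± 1.43 CPM and PSMA1 at 25.2 ± 1.94 CPM in vector controls (SD, n = 4 each). These partner genes had between 0 and 2 counts in every library, except AC040162.1, which had 11 to 28. WDR66, a further gene on the strand of PSMD9 that overlaps it in exonic but not in coding bases, had 176 to 328. How the authors counted reads that fall in the exons of more than 1 gene is not given in the sources used here, and the part of the shared bases in the low counts was not tested. The levels of these 5 genes, and PSMA2 as the lowest log2 fold change, are therefore uncertain. Without the 5 genes the median log2 fold change of the remaining 42 was 0.13 with 39 above 0.

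**Figure D5:**
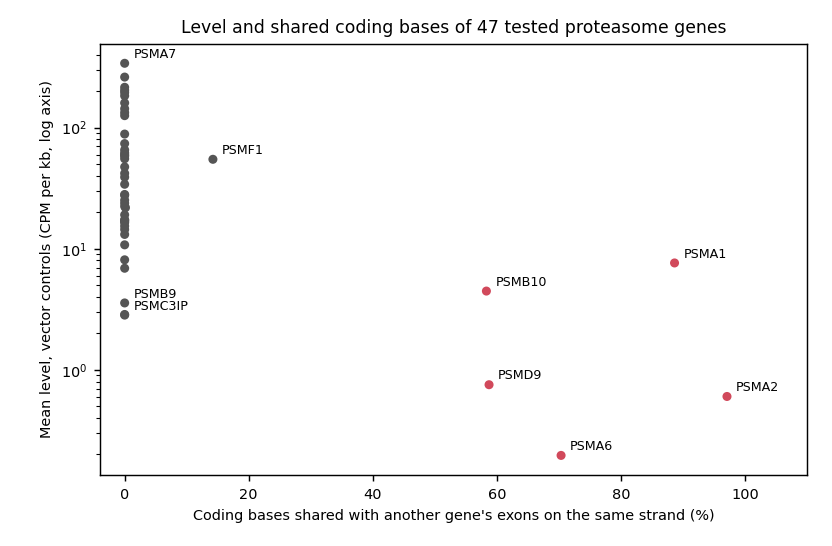
Mean level in vector controls (vertical log axis, CPM per kb) of the 47 tested genes against the percentage of their coding bases that lie in exons of another gene on the same strand (horizontal axis). The 5 red points above 50% lie between 0.197 and 7.63 CPM per kb, and the highest gene, PSMA7 at 340 CPM per kb, shares none.

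Most pseudogenes of these genes held few or no reads. Of 32 pseudogene loci named after a member, 18 had 0 counts in all 8 libraries and 2 were tested. PSMC1P1 had 1211 counts over the 8 libraries, 3.90% of those of PSMC1, with a log2 fold change of 0.51 (adjusted p by edgeR 0.196). PSMA6P1 had 372 counts over the 8 libraries, where PSMA6 itself had 393. Its log2 fold change was 0.74 (adjusted p by edgeR 0.306). How reads that match both were counted is not given in the sources used here.

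Other genes of the pathway gave no call in edgeR's test over all 8 libraries either. Of 13 genes of proteasome-associated proteins 0 passed the test and 9 were above 0, with a median log2 fold change of 0.12. ZFAND2A, a stress-induced proteasome-binding protein, had the smallest p of that list and was at 11.9, 11.2, 15.9 and 12.0 CPM in vector libraries and 17.9, 16.5, 16.3 and 15.9 CPM in SPOCK1 libraries (log2 fold change 0.39 ± 0.12 SE, adjusted p by edgeR 0.162). Vector library 3 and SPOCK1 library 4 were level, and the other libraries did not overlap. Without vector library 3 its adjusted p was 0.049997, just under the threshold, where 0.778% of all genes were called (0.199% as higher). ADRM1, a ubiquitin receptor of the cap, had 0.16 ± 0.09, SEM1, a small lid subunit, 0.12 ± 0.10 and POMP, the chaperone of core maturation, 0.18 ± 0.11 (log2 fold change and SE; adjusted p by edgeR 0.435, 0.631 and 0.491). With the offsets on GC content and length ADRM1 passed, at 0.26 (adjusted p by edgeR 0.0245), where 3.91% of all genes were called (2.31% as higher). With the replicate block in addition it did not pass (adjusted p 0.0828).

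Among 9 genes of the transcriptional control of the proteasome, 0 passed and 2 were above 0, with a median log2 fold change of -0.07. NFE2L1 was at 123.3, 118.9, 113.7 and 123.4 CPM in vector libraries and 104.6, 118.4, 123.0 and 140.7 CPM in SPOCK1 libraries. Its SPOCK1 libraries lay on both sides of the controls, and the log2 fold change was 0.02 ± 0.09 (SE; adjusted p by edgeR 0.941), with a fold change between 0.893 and 1.16 in its 95% interval. NFE2L2, the related regulator of the antioxidant response, was at 48.9 ± 4.94 and 47.1 ± 6.43 CPM (SD, n = 4 each; log2 fold change -0.05, adjusted p by edgeR 0.865). MAFG, a small MAF protein that pairs with both, was at 83.6, 83.5, 79.6 and 82.0 CPM and then 62.7, 66.4, 66.8 and 75.1 CPM. Every SPOCK1 library was below every control, as for 4.80% of all genes tested, and the log2 fold change was -0.28 ± 0.08 (SE; adjusted p by edgeR 0.118). MAFG passed without SPOCK1 library 4, at -0.33 (adjusted p by edgeR 0.0466), where 1.47% of all genes were called. It passed with the offsets on GC content and length too, at -0.21 (adjusted p 0.0470), where 3.91% were called. With the replicate block in addition its adjusted p was 0.144, and it did not pass with any other single library left out. NFE2L1 is controlled largely by processing of its protein, which RNA counts do not show.

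Of 14 genes of ubiquitin and its shuttle factors, 0 passed and 7 were above 0, with a median log2 fold change of 0.02. UFD1, a partner of the unfoldase VCP, had the smallest p, with 82.3 ± 4.84 CPM in vector controls and 94.2 ± 14.8 CPM in SPOCK1 libraries (SD, n = 4 each; log2 fold change 0.20, adjusted p by edgeR 0.408). Of 7 regulators and neighbours of the immunoproteasome genes, 6 were tested, 0 passed and 2 were above 0, with a median of -0.12. STAT2, which carries the interferon signal to the nucleus, was at 37.6, 40.3, 38.9 and 37.4 CPM in vector libraries and 32.0, 37.3, 32.4 and 35.0 CPM in SPOCK1 libraries. All SPOCK1 libraries were below the controls, by little in library 2, and the log2 fold change was -0.17 ± 0.09 (SE; adjusted p by edgeR 0.402). NLRC5, an activator of antigen presentation genes, did not overlap either, with vector libraries down to 7.39 CPM and SPOCK1 libraries up to 7.33 CPM (-0.25 ± 0.13 SE, adjusted p 0.413). These were 2 of the 6 genes, where 4.80% of all genes tested were lower without overlap.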

How the data were processed

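RNA of 8 SW480 libraries was measured, 4 per group by the titles. The values are whole-number read counts per gene, deposited by the authors without normalization, beside the exonic length of each gene. The submitters' processing notes name featureCounts 1.5.0-p3, HISAT2 2.0.5 and CASAVA. For genome build, strand setting and reads shared by genes, the setting is not given in the sources used here. Start, end, strand and exonic length of all 58735 genes equalled those of GENCODE release 29 (GRCh38), and 58708 symbols did. Promoter sequences are RefSeq's on GRCh38.p14.

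Counts were compared with edgeR 4.0.16 (R 4.3.3). Genes passed filterByExpr (minimum count 10, minimum total 15), TMM factors scaled the library sizes, and the quasi-likelihood F test compared the groups without covariates, with Benjamini-Hochberg adjustment over all 15790 genes tested and a threshold of 0.05. Standard errors were taken from the F statistic. CPM use the scaled sizes, and CPM per kb divides by the deposited length. For library trends 0.5 CPM was added before taking log2. Intervals and limits of 0 counts cover counting error only where they come from counts.

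The members, the pathway lists and the rule for named genes were chosen with earlier results of these data known, so no set was tested. Values in every library, or their mean and SD, were given for the member of each group with the smallest p and those highest and lowest per kb. PSMB5 to PSMB10, PSME1, PSME2, NFE2L1, NFE2L2, POMP, ADRM1 and SEM1 were named whatever their values, and each pathway list added the gene with the smallest p. PSMC5, PSMA1 to PSMA4, PSMB3, PSMD1, PSMD3, PSMD4, PSMD14, PSMF1, PSMG4, CDH1, VIL1, CDX2, KRT8, KRT18, NLRC5, WDR66 and the pseudogenes were named after their values were seen. Alternatives were other size factors, DESeq2 1.42.0, limma-voom (limma 3.58.1), other filters, a replicate block, offsets on GC content and length (natural splines, 5 degrees of freedom), libraries 1 and 3 or 2 and 4 alone, library sizes without SPOCK1, and each library left out.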

Additional observations from a re-analysis of the deposited data

Results flagged for a closer look

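In groups of 4 libraries, 3 of 94 (3.19%) held a library whose gap to the nearest other was large for the range of its group by Dixon's test, where chance gives about 1 in 20. PSMA4, an alpha ring gene, was at 147.9 CPM in vector library 3, and the other vector libraries were at 83.3 to 87.4 CPM. PSMC5, a cap ATPase gene, was at 112.5 CPM in vector library 1, and the other vector libraries were at 129.2 to 131.9 CPM. PSMD1, which scaffolds the cap, was at 164.5 CPM in SPOCK1 library 4, and the other SPOCK1 libraries were at 196.8 to 201.9 CPM. The 3 lay in 3 different libraries.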

How the results depend on the processing

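Over all genes, 165 passed. DESeq2 called 398, no filter on low counts 399, offsets on GC content and length 618, and libraries 1 and 3 alone 8. Leaving out 1 library gave 89 to 237. Of the proteasome genes 0 passed, against 1 with DESeq2, 3 with the offsets, 1 with the offsets and the replicate block, and 0 to 1 with 1 library left out. The cause was not tested. Their median log2 fold change kept its sign in every setting and was 0.07 to 0.16 with 1 library left out. The ratio of the highest to the lowest member, 1730 per kb, was 919 without division by length (PSMD2 over PSMA6) and 481 on 1 principal transcript. Over all genes tested, deviations of same-numbered libraries from their group means had correlations of -0.0739, 0.0317, 0.0277 and 0.0817. Those of differently numbered libraries ran from -0.1527 to 0.1594. The GC trend was lower in libraries 1 and 3 than in libraries 2 and 4 of both groups. Whether the numbers pair the samples is not in the labels, and these correlations cannot decide it. With the replicate block 115 genes passed, 0 of them proteasome genes, and the median was 0.12.

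Log2 fold changes near 0 changed sign, none past the threshold. With libraries 2 and 4 alone PSMA6 was at -0.30, PSMB5 at -0.033, PSMB7 at -0.015, PSMB9 at -0.044 and PSMC6 at -0.021. With libraries 1 and 3 alone NFE2L1 was at -0.056 and PSMB8 at 0.098. On plain library sizes, chosen after seeing the data, NFE2L1 was at -0.020, PSMA6 at -0.015 and PSMB9 at -0.039. PSMB9 was at -0.012 with limma-voom, -0.0020 with the replicate block, -0.025 with the offsets and -0.029 with the offsets and the block. With 1 library left out the ranges that crossed 0 were -0.053 to 0.086 for NFE2L1, -0.15 to 0.013 for NFE2L2, -0.15 to 0.12 for PSMA6, -0.021 to 0.13 for PSMB10, -0.0025 to 0.11 for PSMB5, -0.067 to 0.10 for PSMB9, -0.20 to 0.40 for PSMC6 and -0.031 to 0.11 for PSME4. PSMA6 and PSMA2, at 1.28 and 3.22 CPM in vector controls, had standard errors of 0.26 and 0.30.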
